A study of Mus musculus with 6 samples.

Results

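Tandem pairs of cleavage clusters were 2 neighbouring sites of 3′ end formation on the same strand, close enough to be alternatives for one transcript and apart from other strong sites. Cleavage positions from 6 libraries were pooled, and positions of one strand separated by no more than 24 nt made up a cluster. Clusters were kept if they averaged 5 CPM (reads scaled to the library total) or more over all 6 libraries, which left 14195 of 931675 clusters. A pair was 2 neighbouring kept clusters on one strand whose peak positions lay 200 to 5000 nt apart, with no further kept cluster on either strand within 5000 nt of either peak. This gave 1187 pairs out of 14153 neighbouring same-strand pairs. Another 1672 pairs had the same spacing but another kept cluster nearby. Pairs were chosen by the mean level of each cluster over all libraries and by its position, so levels and spacing are given as a description. The readout, which the rule did not use, was the proximal share, the percentage of the reads of a pair that fell in the upstream cluster.

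The libraries came from V6.5 cells, a single mouse embryonic stem cell line of mixed C57BL/6-129 background, with no genetic change given. In the first group U1 was blocked with an antisense morpholino oligonucleotide (U1 AMO), the second received a scrambled AMO, and the third was untreated, each with 2 libraries. Doses and times were not stated as values in the labels, and positions carry no gene names, so the cell type was not checked against markers. The labels call the libraries biological replicates without naming separate cultures, so p-values measure the spread between these libraries. No annotation of the mm9 build of the files was used here, and pairs are named by mm9 coordinates without a gene, exon or UTR.

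Many mammalian genes hold more than one poly(A) site, and cleavage at the upstream or the downstream site of a tandem pair gives mRNAs that differ in the length of their 3′ end. Cleavage takes place a short way downstream of a hexamer bound by the cleavage and polyadenylation specificity factor, whose preferred form is AATAAA. The U1 particle, known for recognising 5′ splice sites, also holds back cleavage at sites inside transcribed regions.

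Distal clusters carried the preferred signal more often than proximal ones, and rarer signals were mainly proximal. Each deposited position comes with its signal hexamer, and the hexamer of the peak position stands for the cluster. The most frequent signal, its most frequent variant and 2 rarer variants that stood more at proximal ends were these, printed in capitals as deposited, 5′ to 3′.
preferred signal: AATAAA
most frequent variant: ATTAAA
rarer variant 1: TATAAA
rarer variant 2: AGTAAA
The hexamer AATAAA stood at 634 proximal clusters (53.4%) and 831 distal clusters (70.0%). ATTAAA was about as frequent at both ends, with 228 proximal (19.2%) and 217 distal clusters (18.3%). All other hexamers together stood at 325 proximal clusters (27.4%) and 139 distal clusters (11.7%). Among them, TATAAA was found at 61 proximal and 26 distal clusters, and AGTAAA at 53 proximal and 21 distal clusters. For comparison, 7865 kept clusters with no kept neighbour on their strand within 5000 nt had AATAAA in 71.3% and other hexamers in 13.3%, near the values of the distal clusters. The distal share of AATAAA was larger in wide pairs, at 61.3% for spacings of 200 to under 500 nt, 66.0% for 500 to under 1000 nt, 75.6% for 1000 to under 2000 nt and 76.2% for 2000 to 5000 nt. The proximal share of AATAAA varied less over the same ranges, at 56.0%, 54.6%, 51.9% and 51.5%.

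Proximal usage was lowest where a rare signal stood upstream of AATAAA. In 461 pairs both ends had AATAAA, and the median of their mean proximal share over the 6 libraries was 48.6%. In 216 pairs a hexamer other than AATAAA and ATTAAA stood upstream of AATAAA, and the proximal cluster took a median of 34.0%. This low usage was present in every library, with medians of 27.1% and 34.9% with U1 AMO, 29.7% and 36.8% with scrambled AMO, and 31.6% and 30.6% untreated. The reverse order, AATAAA upstream of another hexamer, was found in 72 pairs with a median of 52.8%. Pairs of ATTAAA upstream of AATAAA (154 pairs, 49.2%) and AATAAA upstream of ATTAAA (101 pairs, 53.4%) lay near even use. Within a pair, the cluster with more reads had AATAAA in 779 pairs (65.6%) and the weaker one in 686 (57.8%). These are counts over pairs and carry no test.

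Most pairs used both of their sites. The mean proximal share over the 6 libraries had a median of 47.0% and quartiles of 22.2% and 72.4%. It lay between 20% and 80% in 717 pairs (60.4%), under 20% in 259 pairs and over 80% in 211 pairs. The proximal cluster was the stronger one in 550 pairs (46.3%). Spacing ran between 200 and 4962 nt with a median of 1047 nt. It had no visible relation to the mean share, with a Spearman coefficient of -0.0247 over 1187 pairs, all from the same 6 libraries. The plus strand held 621 pairs and the minus strand 566, on 20 chromosomes.

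**Figure D1:**
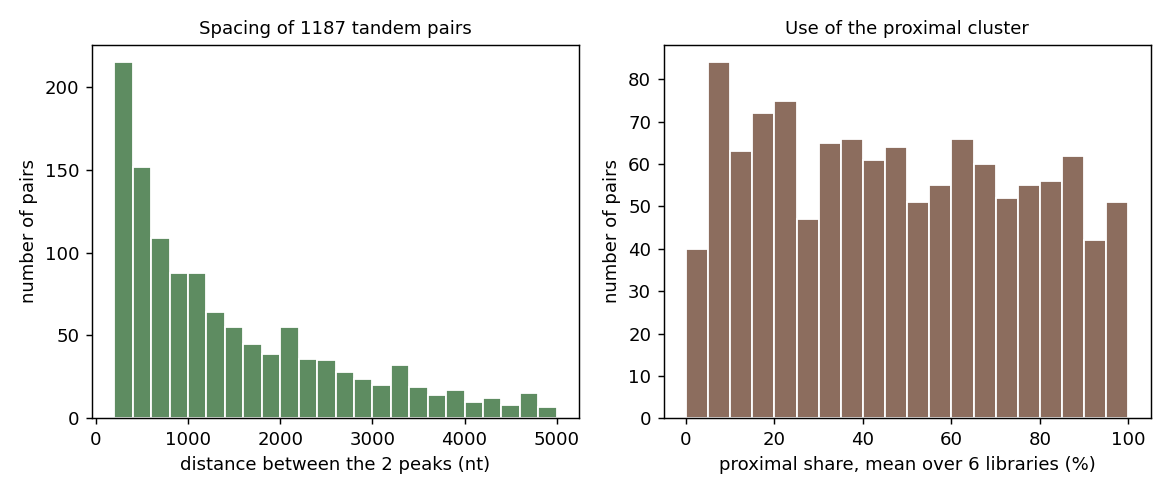
Histograms of the 1187 tandem pairs, with the number of pairs against the distance between the peaks in nt (left) and against the mean proximal share over the 6 libraries in percent (right). Pairs are most numerous at short spacings, with a median of 1047 nt, while shares spread over the whole range, with 717 pairs between 20% and 80%.

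The ends of a pair were alike in their other deposited features. Proximal clusters had a median level of 17.7 CPM and distal clusters 21.2 CPM. A proximal cluster held a median of 22 listed positions over 31 nt, and a distal one 20 positions over 29 nt. The strongest position took a median of 44.9% of the reads of a proximal cluster and 45.8% of a distal one. The signal lay a median of 22 nt upstream of the proximal peak and 21 nt upstream of the distal peak. The score deposited with each position, a whole number with no stated meaning, had a median of 5 at both ends.

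The libraries held 15752080 and 57925358 reads with U1 AMO, 26846406 and 62257923 with scrambled AMO, and 38569397 and 60473882 untreated. Pairs took 14.3% to 15.6% of these reads, and a pair had a median of 783 to 3432 reads per library. All 1187 pairs had reads in each AMO library, but 1186 and 1185 in untreated replicates 1 and 2. The median half-width of the 95% Wilson interval of a proximal share was 1.29 to 2.83 percentage points, widest in U1 AMO replicate 1. Reads carry no molecular identifiers, so intervals and floors cover counting error only. Read names show that replicate 1 of U1 AMO and of scrambled AMO shared a sequencing run and lane, and replicate 2 of both shared another run. Each untreated library had a run of its own, so treatment and run cannot be told apart in any comparison with untreated cells. The 4 AMO libraries allow a comparison within each run. Among them replicate number, run and read depth go together and cannot be told apart. Whether a run is also a culture or preparation batch is not stated.

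Of the 5 most abundant pairs, 2 had nearly the same share in every library. The pair with the highest summed level lay on the plus strand of chromosome 14 (proximal chr14:25315076-25315095, distal chr14:25316166-25316196). Its proximal share was 99.7% and 99.8% with U1 AMO, 99.7% and 99.8% with scrambled AMO, and 99.8% and 99.9% untreated. A minus-strand pair on chromosome 9 was used almost entirely at the distal end (proximal chr9:61765079-61765107, distal chr9:61761070-61761110). Its proximal share was 1.92% and 1.66% with U1 AMO, 1.93% and 1.87% with scrambled AMO, and 1.75% and 1.36% untreated. These 2 pairs sat at opposite extremes in every library and moved by less than 1 point between groups. So near 0% and 100%, a share in points can hide a change of the weaker cluster. In the chromosome 14 pair this cluster averaged 18.2 CPM with U1 AMO, 20.7 CPM with scrambled AMO and 9.67 CPM untreated. In the chromosome 9 pair it averaged 120, 129 and 96.3 CPM in the same order.

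The other 3 of the 5 most abundant pairs differed more between libraries. On the minus strand of chromosome 5 (proximal chr5:143665372-143665405 with AAATAA, distal chr5:143664787-143664817 with AATAAA) the share was 0.878% and 0.254% with U1 AMO, 0.727% and 0.215% with scrambled AMO, and 0.234% and 0.652% untreated. Here the AMO libraries of replicate 1 were higher than those of replicate 2, and treatment made less difference than replicate number. A minus-strand pair on chromosome 11 with ATTAAA upstream of AATAAA (proximal chr11:53075042-53075089, distal chr11:53073309-53073335) had shares of 85.3% and 86.6% with U1 AMO, 81.2% and 85.1% with scrambled AMO, and 90.3% and 89.1% untreated. A plus-strand pair with AATAAA upstream of ATTAAA (proximal chr11:75579066-75579148, distal chr11:75579327-75579360) had shares of 85.0% and 84.2% with U1 AMO, 82.7% and 82.8% with scrambled AMO, and 81.7% and 78.4% untreated. In the first of these chromosome 11 pairs the untreated libraries were highest, and in the second they were lowest.

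Among the pairs with a mean share between 40% and 60%, the most abundant was on the minus strand of chromosome 10, with AGTAAA upstream of AATAAA (proximal chr10:62044847-62044933, distal chr10:62042990-62043062). Its share was 63.6% and 59.8% with U1 AMO, 58% and 62.9% with scrambled AMO, and 51.6% and 44.3% untreated, so the untreated libraries lay below all AMO libraries. A second pair on that strand (proximal chr10:127995674-127995712, distal chr10:127994814-127994838) had 43.5% and 39.3% with U1 AMO, 44.1% and 45.2% with scrambled AMO, and 39.6% and 39.9% untreated. The third, on the minus strand of chromosome 17 with ATTAAA upstream of AATAAA (proximal chr17:24831128-24831147, distal chr17:24830126-24830145), had 47.0% and 61.1% with U1 AMO, 47.4% and 63.9% with scrambled AMO, and 68.6% and 65.6% untreated. In this last pair the AMO libraries paired by replicate number rather than by treatment.

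U1 AMO against scrambled AMO compares the proximal share of a pair with and without a block of U1. Over all pairs the share differed little. A share also changes when only the proximal or only the distal cluster gains or loses reads. Whether cleavage moved between the 2 sites of a pair was therefore not tested. The median proximal share was 45.7% and 48.5% with U1 AMO, 47.4% and 49.9% with scrambled AMO, and 46.3% and 44.2% untreated. As means of these medians, U1 AMO had 47.1% ± 1.98, scrambled AMO 48.7% ± 1.73 and untreated cells 45.3% ± 1.54 (SD, n = 2 each), which sets the groups about as far apart as their libraries. Within each run, however, the median was lower with U1 AMO than with scrambled AMO, as were the number of pairs with a share over 50%, which was 541 and 576 with U1 AMO and 557 and 592 with scrambled AMO, and the proximal part of all reads. The proximal clusters together took 51.4% and 50.2% of the reads of all pairs with U1 AMO, 51.9% and 50.6% with scrambled AMO, and 49.1% and 49.6% untreated.

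**Figure D2:**
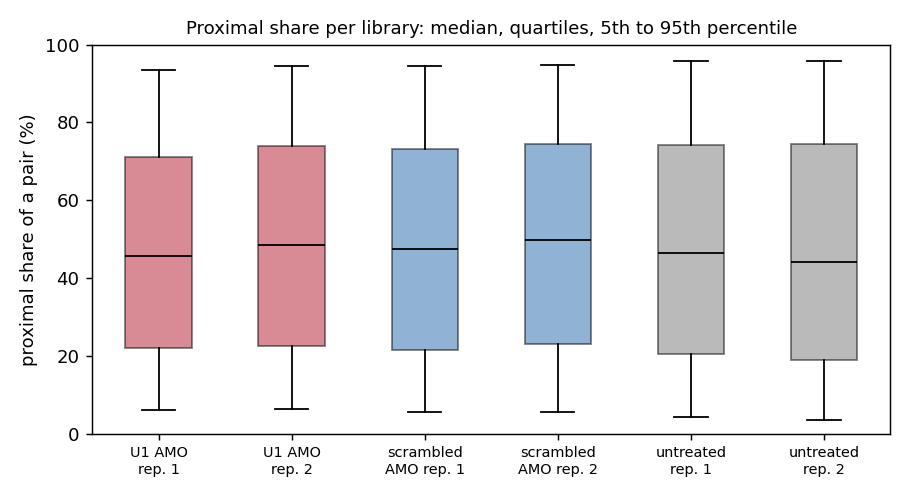
Proximal share in percent of the tandem pairs in each of the 6 libraries (U1 AMO, scrambled AMO, untreated), with lines for medians, boxes for quartiles and whiskers for the outer percentiles named in the title. Each AMO library has 1187 pairs, and untreated replicates 1 and 2 have the 1186 and 1185 pairs with reads. Medians lie between 44.2% and 49.9%, and the boxes of all libraries overlap.

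Libraries of one run were closer to each other than replicates of one treatment. The median absolute difference of a pair's share between U1 AMO and scrambled AMO was 3.11 points in the run of replicate 1 and 2.02 points in the run of replicate 2. Between the replicates it was 4.16 points for U1 AMO, 4.69 points for scrambled AMO and 6.79 points for untreated cells. Differences over 10 points were found in 139 and 43 pairs within the runs, and in 231, 275 and 426 pairs between replicates of U1 AMO, scrambled AMO and untreated cells. The stronger site was not the same in 82 and 48 pairs between U1 AMO and scrambled AMO within the runs, and in 99, 107 and 137 pairs between replicates of the 3 groups. The U1 AMO minus scrambled AMO differences of the 2 runs, with no library in common, had a Pearson coefficient of 0.477 over the 1187 pairs. The Spearman coefficient was 0.337. Pairs whose proximal cluster (21) or distal cluster (13) reached 5 CPM only with U1 AMO are included. A change was built into these by the level rule, so both coefficients are a description.

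**Figure D3:**
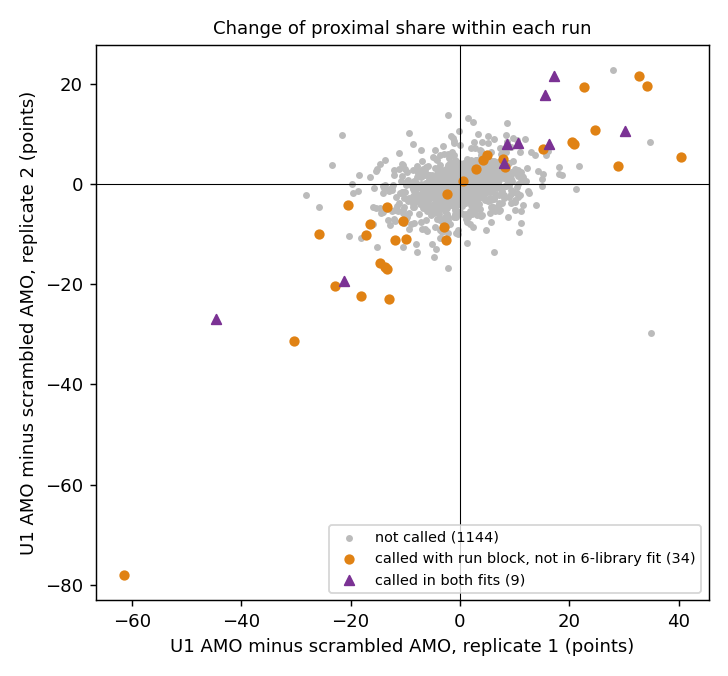
Difference in proximal share, U1 AMO minus scrambled AMO in percentage points, for each of the 1187 pairs in the run of replicate 1 (horizontal axis) and of replicate 2 (vertical axis). Grey points are pairs not called, orange points the 34 called with the run as a block but not with all 6 libraries and purple triangles the 9 called in both fits. Most pairs lie near 0 in both runs. The 43 called pairs have the same sign in both, which a fit with the run as a block favours, so it is no separate evidence.

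The direction of the small differences varied with spacing. The proximal share was higher with U1 AMO than with scrambled AMO in both runs in 333 pairs (28.1%) and lower in both in 409 pairs (34.5%), while 445 were mixed. Over all 14153 neighbouring pairs these shares were 33.4% higher and 33.3% lower. Those pairs form a chain in which nearly every kept cluster is proximal in 1 pair and distal in the next. Rises and falls over all of them therefore nearly balance by construction. Only 2859 of them are 200 to 5000 nt apart, so these values are no baseline for tandem pairs. Of the 302 tandem pairs spaced 200 to under 500 nt, 115 were higher in both runs and 85 lower. Of the 262 tandem pairs of 500 to under 1000 nt, 80 were higher and 86 lower. Of the 291 pairs of 1000 to under 2000 nt, 56 were higher and 115 lower, and of the 332 pairs of 2000 to 5000 nt, 82 were higher and 123 lower. In the widest range the median difference was -0.76 points in the run of replicate 1 and -0.39 points in that of replicate 2, against 0.21 and 0.18 points in the closest pairs. Taken over the 623 pairs of at least 1000 nt, 138 (22.2%) were higher in both runs and 238 (38.2%) lower.

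Wide pairs that the rule left out had the same lean. Of 729 pairs of at least 1000 nt with another kept cluster nearby, the proximal share was higher with U1 AMO in both runs in 172 (23.6%) and lower in 281 (38.5%). The 505 left-out pairs spaced 200 to under 500 nt had 174 higher and 147 lower. At 500 to under 1000 nt the 438 left-out pairs had 114 higher and 154 lower, against 80 and 86 of the tandem pairs. Tandem and left-out pairs come from the same 4 libraries, and left-out pairs can share a cluster with one another. Wide pairs whose clusters each reached 5 CPM in all 3 groups, 435 in number, had 92 higher and 158 lower. In the pairs of 1000 nt or more, the median differences were -0.89 and -0.43 points in the runs of replicates 1 and 2.

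**Figure D4:**
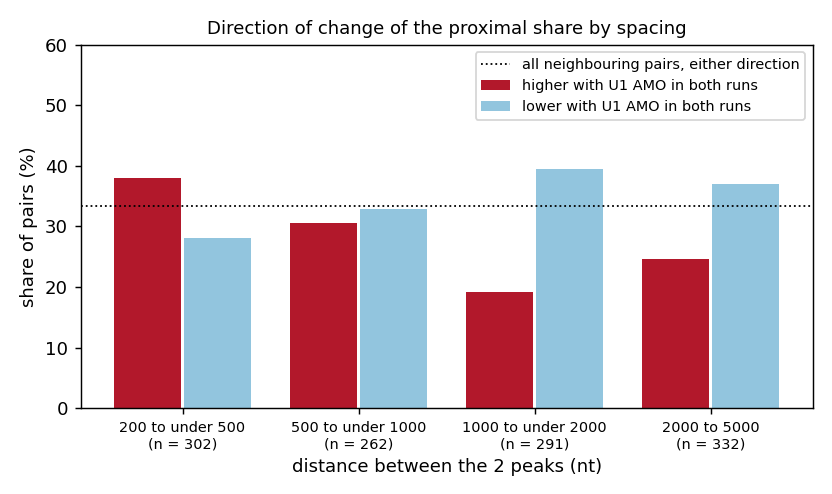
Percentage of pairs in 4 ranges of spacing whose proximal share was higher, or lower, with U1 AMO than with scrambled AMO in both sequencing runs, with a dotted line at the level over all 14153 neighbouring pairs (33.4% higher, 33.3% lower). Pairs lower in both runs are 28.1% of the closest range and 39.5% of the 1000 to under 2000 nt range. The dotted line covers pairs of any spacing, whose rises and falls nearly balance by construction, and is no baseline.

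Single pairs were tested with edgeR's quasi-likelihood test for a change in the ratio of proximal to distal reads, fitted over all 14153 neighbouring pairs with all 6 libraries. With Benjamini-Hochberg adjusted p under 0.05, 9 tandem pairs were called for U1 AMO against scrambled AMO, 7 with a higher and 2 with a lower proximal share. That was 0.758% of the pairs, against 1.74% of all neighbouring pairs (0.876% higher and 0.862% lower). With the sequencing run of the 4 AMO libraries as a block, 43 pairs were called (3.62%), 22 higher and 21 lower, against 8.49% of all neighbouring pairs (4.24% higher and 4.25% lower). In both fits the share of tandem pairs called lay below that of all neighbouring pairs. Most of the latter do not have a spacing of 200 to 5000 nt. Pairs of that spacing with another cluster nearby had 0.778% and 3.23%. These shares carry no test. With replicate as a block over the 6 libraries together edgeR called no pair, neither among tandem pairs nor among all 14153, with 25 tandem pairs at an unadjusted p under 0.05. All 9 calls were among the 43. DESeq2 called 16 pairs, 12 higher and 4 lower, against 2.87% of all neighbouring pairs (1.43% in each direction). No pair was called once U1 AMO replicate 1, U1 AMO replicate 2 or scrambled AMO replicate 2 was left out.

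In each of the 9 called pairs, a cluster below 5 CPM in both control groups was above it with U1 AMO. In the 7 pairs with a higher share, this was the proximal cluster, and in the 2 with a lower share the distal one. These pairs met the level rule through the U1 AMO libraries and had to differ, so their count and their values are a description, and log2 ratios are given for them with no p. Among the 855 pairs whose clusters each reached 5 CPM in all 3 groups, none of the 9 was present, and the block fit called 17, with 6 higher and 11 lower. The 7 pairs with a higher share were wide, at 1828 to 4576 nt, and their shares in single libraries were 4.16% to 30.5% with U1 AMO and 0.0192% to 1.49% with scrambled AMO. The proximal cluster itself was called higher in 6 of the 7.

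Measured in percentage points, the largest rise among the 9 was in a minus-strand pair on chromosome 7 with AATAAA at both ends and 4576 nt between them (proximal chr7:53085161-53085201, distal chr7:53080593-53080622). The proximal share was 30.5% and 10.6% with U1 AMO, 0.358% and 0.0620% with scrambled AMO, and 0.0246% and 0% of reads untreated, where the count of 0 allows up to 0.121%. The proximal cluster stood at 30.2 and 26.1 CPM with U1 AMO, 0.298 and 0.161 CPM with scrambled AMO, and 0.0259 and 0 CPM untreated. The distal cluster went with the replicate number, at 68.9 and 220 CPM with U1 AMO and 83.0 and 259 CPM with scrambled AMO. The log2 ratio of proximal to distal reads was higher by 7.35 ± 1.08 (SE).

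A minus-strand pair on chromosome 8, also with AATAAA at both ends, had its sites 2522 nt apart (proximal chr8:59963967-59964043, distal chr8:59961485-59961556). Its share was 15.7% and 17.9% with U1 AMO, 0.186% and 0.106% with scrambled AMO, and 0 of 4025 and 13070 reads untreated, which allows up to 0.0745% and 0.0230%. The U1 AMO libraries stood far above the others, and the log2 ratio was higher by 7.13 ± 0.50 than with scrambled AMO. The distal cluster had 177 and 125 CPM with U1 AMO, 180 and 106 CPM with scrambled AMO, and 104 and 216 CPM untreated, so its groups overlapped.

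The pair with ATTAAA at both ends was on the plus strand of chromosome 11 (proximal chr11:114530876-114530900, distal chr11:114533645-114533662), spaced 2757 nt. Its share was 16.5% and 8.06% with U1 AMO, 0.0851% and 0.0458% with scrambled AMO, and 0.0584% and 0% untreated, where the 0 allows up to 0.0270%. Its log2 ratio was higher by 7.69 ± 0.85. A plus-strand pair on chromosome 17 of 1828 nt with AATAAA at both ends (proximal chr17:25377908-25377935, distal chr17:25379738-25379761) had 11.5% and 8.69% with U1 AMO, 0.756% and 0.489% with scrambled AMO, and 1.20% and 0.499% untreated. Here the proximal site was already read in every control library, and the log2 ratio was higher by 4.19 ± 0.56. The fifth, on the plus strand of chromosome 2 with AATAAA at both ends and a spacing of 2940 nt (proximal chr2:129034395-129034422, distal chr2:129037329-129037364), had 8.74% and 8.09% with U1 AMO, 0.123% and 0.0865% with scrambled AMO, and 0.0144% and 0% untreated, where the 0 allows up to 0.0662%. Its log2 ratio was higher by 6.47 ± 0.51. In these 3 pairs both U1 AMO libraries lay above all 4 others.

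The 2 called falls were pairs that gained a distal site. On the plus strand of chromosome 4, a pair spaced 3984 nt with AATAAA at both ends (proximal chr4:138933364-138933388, distal chr4:138937338-138937361) had proximal shares of 51.4% and 69.4% with U1 AMO, 96.0% and 96.4% with scrambled AMO, and 99.4% and 98.6% untreated. The distal cluster stood at 23.1 and 12.2 CPM with U1 AMO, 1.01 and 1.03 CPM with scrambled AMO, and 0.156 and 0.182 CPM untreated. The proximal cluster was at 24.4 and 27.6 CPM with U1 AMO and at 24 and 27.5 CPM with scrambled AMO, so the distal cluster carried the difference. The log2 ratio fell by 4.02 ± 0.62.

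The other was on the minus strand of chromosome 14, spaced 1920 nt with AATAAA at both ends (proximal chr14:52817811-52817845, distal chr14:52815903-52815918). Its share was 77.0% and 79.7% with U1 AMO, 98.2% and 99.1% with scrambled AMO, and 99.6% and 99.3% untreated. The distal cluster had 19.4 and 18.1 CPM with U1 AMO, 1.12 and 0.675 CPM with scrambled AMO, and 0.233 and 0.331 CPM untreated. The log2 ratio fell by 4.42 ± 0.57. The groups did not overlap in either pair.

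The largest difference in points among the named pairs was in one called with the run as a block but not in the fit of all 6 libraries. A minus-strand pair on chromosome 1 with AAGAAT upstream of ATTAAA (proximal chr1:88253715-88253770, distal chr1:88252633-88252713) had shares of 33.5% and 14.7% with U1 AMO, 95% and 92.7% with scrambled AMO, and 96.6% and 72.4% untreated. Its distal cluster was at 106 and 123 CPM with U1 AMO, 2.27 and 1.14 CPM with scrambled AMO, and 0.363 and 0.959 CPM untreated. This cluster, too, met the level rule only through U1 AMO and the pair had to differ. The log2 ratio fell by 5.74 ± 0.27 in the block fit, given with no p. The untreated libraries of this pair differed by over 20 points from each other.

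The other pairs named from the block fit used both sites in control cells. On the plus strand of chromosome 4, a pair spaced 3868 nt with AATATA upstream of AATAAA (proximal chr4:124478733-124478759, distal chr4:124482610-124482630) had shares of 39.4% and 41.0% with U1 AMO, 69.7% and 72.4% with scrambled AMO, and 84.0% and 84.7% untreated. The log2 ratio fell by 1.87 ± 0.24 (edgeR adjusted p = 0.000178 with the block and 0.152 without). On the minus strand of chromosome 2, a pair spaced 1090 nt with AATAAA at both ends (proximal chr2:30328101-30328151, distal chr2:30327048-30327064) had 51.6% and 48.7% with U1 AMO, 69.7% and 71.0% with scrambled AMO, and 52.8% and 66.4% untreated. Its log2 ratio fell by 1.24 ± 0.23 with the block (edgeR adjusted p = 0.00373, against 0.936 without). The distal cluster of this pair averaged 4.96 CPM with scrambled AMO, below the level of the rule, 8.37 CPM untreated and 25.1 CPM with U1 AMO. U1 AMO lay below scrambled AMO in both runs in both pairs, but in the chromosome 2 pair the lower untreated library was near the U1 AMO values.

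**Figure D5:**
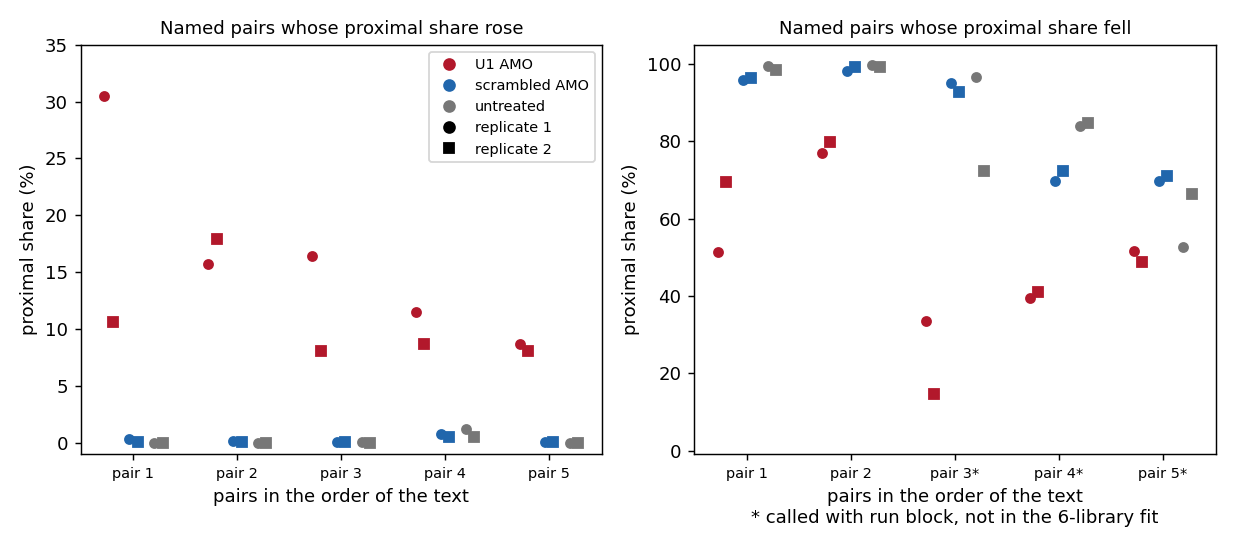
Proximal share in percent in each library for the named pairs whose share was called higher (left) or lower (right) with U1 AMO than with scrambled AMO, in the order of the text, with untreated libraries beside them. In the left panel the U1 AMO points reach 30.5% while scrambled AMO and untreated points stay at or below 1.20%. In the right panel the U1 AMO points are at or below 79.7%, a range that also holds some scrambled AMO and untreated points.

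The 43 pairs called with the block moved in a like manner. Of the 22 with a higher share, the proximal cluster itself was called higher in 16 and the distal one lower in 6. Of the 21 with a lower share, the distal cluster was called higher in 18 and the proximal one lower in 3. In 13 of the 22 the proximal cluster, and in 6 of the 21 the distal cluster, reached 5 CPM only with U1 AMO, so a gain was built into these pairs by the level rule. Spacing was at least 1000 nt in 19 of the 22 and 18 of the 21, against 623 of all 1187 tandem pairs. The pairs with a built-in gain are part of these counts, and a link with spacing was not tested.

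Tested one by one, clusters of tandem pairs that changed with U1 AMO were all higher in the fit of all 6 libraries. Against scrambled AMO, edgeR called 12 proximal and 8 distal clusters higher out of 1187 each and none lower (25 proximal and 24 distal clusters had an unadjusted p under 0.05 in either direction), against 0.565% of all clusters tested called higher and 0% lower. Pairs whose proximal cluster (21) or distal cluster (13) reached 5 CPM only with U1 AMO are part of these counts and had to gain there. The gains fell in both clusters of 4 pairs, in the proximal one only of 8 pairs and in the distal one only of 4. No cluster of a pair was called once scrambled AMO replicate 2 was left out. DESeq2 called 37 clusters, 21 proximal and 16 distal and all higher, against 3.86% of all clusters higher and 0% lower. With the run as a block, 41 proximal clusters were higher and 96 lower, and 52 distal clusters were higher and 76 lower, against 13.0% of all clusters higher and 2.05% lower. Most of these changes stood alone, with a fall of the proximal cluster only in 84 pairs, of the distal cluster only in 64 and of both in 11. A rise was called in both clusters of 19 pairs, in the proximal one only of 21 and in the distal one only of 32.

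Scrambled AMO against untreated cells compares groups without a block of U1, in which the scrambled AMO and the sequencing run cannot be told apart. No pair was called by edgeR, nor was any of the 14153 neighbouring pairs (0%), while 168 tandem pairs had an unadjusted p under 0.05 and DESeq2 called 70, with 43 higher and 27 lower, against 8.42% of all neighbouring pairs (4.18% higher and 4.24% lower). At the level of single clusters edgeR also called none (0% of all clusters), DESeq2 called 151 clusters of pairs, against 1.67% of all clusters higher and 1.02% lower, and edgeR had 205 proximal and 243 distal clusters at an unadjusted p under 0.05.

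U1 AMO against untreated cells gave 23 calls with edgeR (1.94%), 14 higher and 9 lower, against 5.04% of all neighbouring pairs (2.51% higher and 2.54% lower). DESeq2 called 130, against 17.2% of all neighbouring pairs (8.56% higher and 8.65% lower). Without untreated replicate 1 edgeR called 75, and without either U1 AMO library 9. At the level of single clusters, edgeR called 30 proximal clusters higher and 23 lower, and 23 distal clusters higher and 26 lower, against 4.29% of all clusters higher and 0.515% lower. DESeq2 called 343 clusters of pairs, against 9.89% of all clusters higher and 2.60% lower. In 11 of the 23 pairs (9 higher and 2 lower) 1 cluster reached 5 CPM only with U1 AMO. Both clusters reached 5 CPM in each group in only 6 of the 23, with 3 higher and 3 lower. The 23 pairs include the 9 pairs called against scrambled AMO, which shares the U1 AMO libraries with this comparison. Among the 3 largest rises in points, a minus-strand pair on chromosome 15 with ATTAAA upstream of AATAAA (proximal chr15:98568046-98568098, distal chr15:98566823-98566835) had shares of 88.8% and 87.1% with U1 AMO, 89.9% and 84.3% with scrambled AMO, and 37.8% and 57.9% untreated. Its log2 ratio was higher than in untreated cells by 3.0 ± 0.54 (edgeR adjusted p = 0.0358). A second minus-strand pair on that chromosome (proximal chr15:8042223-8042239, distal chr15:8041662-8041686) had 73.8% and 72.2% with U1 AMO, 66.0% and 75.9% with scrambled AMO, and 38.8% and 37.7% untreated, a log2 ratio higher by 2.13 ± 0.44 (edgeR adjusted p = 0.0496). A plus-strand pair on chromosome 6 with ATTAAA at both ends (proximal chr6:37916282-37916305, distal chr6:37918410-37918454) had 89.9% and 89.4% with U1 AMO, 86.3% and 88.1% with scrambled AMO, and 59.4% and 51.2% untreated, a log2 ratio higher by 2.80 ± 0.42 (edgeR adjusted p = 0.0182). The distal cluster of the chromosome 6 pair averaged 4.32 CPM with U1 AMO, below the level of the rule, and 15.2 CPM untreated. In these 3 pairs the scrambled AMO libraries stood with U1 AMO and apart from the untreated ones, which came from other runs.

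The largest falls in points against untreated cells included both chromosome 4 pairs described above. For the pair with AATATA upstream the log2 ratio fell by 3.0 ± 0.41 (edgeR adjusted p = 0.0135), and for the wide pair that gained its distal site it fell by 6.05 ± 0.67, given with no p since its distal cluster met the level rule only through U1 AMO. A plus-strand pair on the X chromosome with AATAAA upstream of AAAAAA (proximal chrX:98013740-98013755, distal chrX:98016077-98016080) had shares of 47.6% and 66.3% with U1 AMO, 52.4% and 80.9% with scrambled AMO, and 96.0% and 94.5% untreated. Its log2 ratio fell by 3.92 ± 0.78, and the scrambled AMO libraries lay nearer to U1 AMO. Its distal cluster had 2.18 and 3.09 CPM untreated and met the level rule only through the AMO libraries, so no p is given. That cluster spanned 4 nt. The X-linked pair had higher distal levels in the run of replicate 1 under both AMOs.

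At the limits of the rule, pairs inside and outside were as follows. The closest pair had a spacing of 200 nt and a mean proximal share of 61.1%, beside 68.2% in the nearest pair outside, at 199 nt. The widest had 4962 nt and 6.34%, beside 0.521% in a pair of 5012 nt. The pair with the least abundant weaker cluster, at 5.01 CPM, had a mean share of 5.27%, beside 5.51% in a pair just outside at 4.99 CPM.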

How the data were processed

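The 6 deposited files hold cleavage positions by strand, each with an unscaled count of reads, made by the authors with cutadapt and Bowtie on mm9, per the submitters' processing notes. No versions are given there. Each position also has a deposited hexamer, its distance, and a score of unknown meaning. Clusters, pairs and CPM were computed as described above, without chromosome M positions but with their reads in the library totals. Pairs were tested with edgeR 4.0.16 in R 4.3.3 (quasi-likelihood, 12 columns of counts, library as a term, site by group as the effect, 3 residual degrees of freedom), and clusters with TMM and filterByExpr. Standard errors come from the fold change and its F statistic. DESeq2 1.42.0 was an alternative, beside other joining distances, CPM minimums and left-out libraries. Descriptions used Python 3.11.15, pandas 2.3.3, scipy 1.17.1 and matplotlib 3.10.9. The methods were tested on simulated data. Wilson intervals are at 95%, and a count of 0 allows 3 counts.

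Named pairs were the 5 most abundant, up to 5 largest called changes in each direction against scrambled AMO (filled up from the block fit), 3 in each direction against untreated cells with groups that do not overlap, 3 with balanced shares, and those at the limits, never on chromosome 18. The members and lists were chosen with earlier results of these data known. Replicate numbers pair the AMO libraries by sequencing run, per the read names in the deposited files, and replicate deviations of U1 AMO and scrambled AMO correlated over pairs (0.751); the block fit has 1 residual degree of freedom.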

Additional observations from a re-analysis of the deposited data

How the results depend on the processing

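The 9 pairs called for U1 AMO against scrambled AMO became 43 with a replicate block in the 4 AMO libraries, 0 with a replicate block in all 6, 16 with DESeq2, 3 at a mean of 10 CPM, 0 among pairs with 5 CPM in every group (chosen after seeing the data), and 0 to 10 on leaving out 1 library, with 3 without scrambled AMO replicate 1 and 0 without U1 AMO replicate 1, U1 AMO replicate 2 or scrambled AMO replicate 2. The 0 for scrambled AMO against untreated became 70 with DESeq2. The 23 for U1 AMO against untreated became 14 with a replicate block in all 6, 13 in the 4 libraries compared, 130 with DESeq2, 8 at 10 CPM, 6 with 5 CPM in every group, and 9 to 75 on leaving out 1 library, with 75 without untreated replicate 1, 13 without either scrambled AMO library and 9 without either U1 AMO library. The 20 clusters called for U1 AMO against scrambled AMO became 37 with DESeq2, 0 and 265 with a replicate block in 6 and 4 libraries, and 0 to 29 on leaving out 1 (0 without scrambled AMO replicate 2, 13 without scrambled AMO replicate 1). The 0 clusters for scrambled AMO against untreated became 151 with DESeq2, 52 without the level filter and 0 to 1 on leaving out 1. The 102 clusters for U1 AMO against untreated became 343 with DESeq2, 0 with a replicate block in all 6, 27 in the 4 compared, and 29 to 236 on leaving out 1 (236 without untreated replicate 1; 29, 51, 52 and 66 without U1 AMO replicate 2, U1 AMO replicate 1, untreated replicate 2 and scrambled AMO replicate 1). The cause was not tested; on leaving out 1 library, the lone library of a group is taken to vary like the others. Named pairs kept their direction in all 243 recomputed values, and 7 others had no value at 10 CPM. They were picked for large called changes and recomputed from the same 6 libraries, so a kept direction is no separate evidence. Of 16 named results, 10 lost the call with a replicate block in all 6 libraries. In the 4 libraries compared 4 lost it, at 10 CPM 2 and at a joining distance of 10 nt 1. More lost it on leaving out 1 library, and some gained it under other settings.

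Median shares at 10 CPM were 48.6% and 51.4% with U1 AMO, 49.6% in scrambled AMO replicate 1, and 48.9% and 46.7% untreated, and with 5 CPM in every group 47.7% in U1 AMO replicate 1. The lower shares of wide pairs with U1 AMO had the same direction in both runs under each joining distance, CPM minimum, total and isolation rule tried; in the closest pairs the median difference in the run of replicate 1 was -0.21 points at 10 CPM. Isolation on one strand alone gave 1482 pairs. Few libraries, 2 per group, limit every test, and the smallest permutation p of 2 against 2 is 0.333.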
